A study of Rattus norvegicus with 10 samples.

Results

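The genes described here are 9 components of the adrenergic and angiotensin systems, measured in samples labelled as rat penis. They are the receptors Adra1a, Adra1b, Adra1d, Adra2a and Agtr1a, the angiotensin genes Ace and Agt, and the G protein regulators Rgs2 and Rgs5. They were chosen by name, and every probe set that the platform annotation assigned to 1 of them alone was read, which gave 12 probe sets for the 9 genes, out of 15866 probe sets for 10411 named genes. Agtr1a, Ace and Rgs2 had a pair of probe sets each and the others 1 each. No probe set named a member among several genes.

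There were 5 tissue samples labelled as diabetic at 10 weeks and 5 control samples. Diabetes had been induced by streptozotocin, which kills the insulin-producing cells of the pancreas. All were from rats of the inbred F344 strain, each sample was total RNA on 1 Affymetrix RAE230A array, and the study asks which transcripts differ between diabetic and control penile tissue. The labels give no age, no vehicle treatment for the controls and no pairing, and do not say whether the samples within a group are different animals or repeats, so the p-values reflect whatever variation lies between them, which may be technical. Values are linear intensities that the authors had scaled to a common level on each array, with array medians between 116.8 and 131.4. The number of arrays limits precision, as does the spread between controls given below.

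Erectile tissue stays contracted at rest because sympathetic nerves release noradrenaline onto smooth muscle. Its alpha1 adrenoceptors, and the AT1 angiotensin receptor encoded by Agtr1a, couple to Gq proteins, which raise cytosolic calcium and lead to contraction. Angiotensin II is cut from angiotensinogen, the product of Agt, by renin and then by the angiotensin-converting enzyme, the product of Ace. RGS proteins such as those of Rgs2 and Rgs5 speed up the GTP hydrolysis of G protein alpha subunits and so shorten receptor signals.

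The labelled tissue was checked against marker genes. Most smooth muscle markers were bright, with Acta2, smooth muscle actin, at 1595.4 to 2015.6 in diabetic and 1159.7 to 1780.3 in control tissue, and Myh11, smooth muscle myosin, at 1427.6 to 2284.7 and 929.1 to 1703.1. Lmod1 and Smtn were dimmer, at 183.3 to 226.2 and 162.8 to 275.2 in diabetic and 135.9 to 225.6 and 171 to 365.5 in control tissue. Of the 12 tested smooth muscle markers 0 passed the test described below, 9 stood above 0 and 3 below, with a median log2 change of 0.29. Csrp1, Myh11 and Actg2 had the smallest p, with log2 changes (± SE) of 0.31 ± 0.11, 0.52 ± 0.19 and 0.53 ± 0.21 (limma adjusted p of 0.204, 0.216 and 0.247). Skeletal muscle markers were also bright, with Ckm, muscle creatine kinase, at 8849 to 11096 in diabetic and 9284 to 13231 in control tissue. The samples thus held more than erectile smooth muscle. RNA of noradrenergic marker genes was mixed, and the nerve fibres themselves were not measured. Th, Dbh and Slc6a2, which make and take up noradrenaline, lay at or under 85.9, the intensity used as a filter below, on all 10 arrays. Npy, a transmitter released with noradrenaline, read 257.1 to 375.1 in diabetic and 223.1 to 577.8 in control tissue, and Slc18a2, the vesicular monoamine transporter, 72.2 to 107.8 and 69.7 to 126.9. Of the 6 tested nerve and Schwann cell markers 0 passed. Those with the smallest p were Sox10 at 1.76 ± 0.67, Cnp at 0.19 ± 0.08 and S100b at -0.57 ± 0.29 (limma adjusted p of 0.228, 0.271 and 0.321). The controls differed in epithelial content: the 16 epithelial markers summed to 6861 to 14632 in diabetic and 676 to 14755 in control tissue, lowest in controls 1 and 2. The 8 fibroblast markers summed to 11715 to 18401 in diabetic and 22556 to 33949 in control tissue, without overlap. All 8 stood below 0 while 0 passed the test described below. The gap lay in the collagens Col1a1, Col1a2 and Col3a1, at log2 changes of -2.05, -1.81 and -1.35 with groups that did not overlap. The groups overlapped for Thy1, Dpt, Pdgfra, Lum and Dcn, at -0.46, -0.32, -0.25, -0.06 and -0.01, so the sum does not show a difference in fibroblast content. The part of the fibroblast list in the member values was not tested, and that of the epithelial list was looked at in alternative fits given below. These samples are a mixture of cells, and fewer cells of a type cannot be told apart from less RNA per cell.

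The promoter windows of Ace, Agtr1a, Rgs2 and Rgs5 are shown because these 4 are the members that passed the intensity filter and entered the main test. They are the 250 bases before each gene's start in the RefSeq annotation of build GRCr8, written 5′ to 3′ on the gene's strand. Their positions are chr10:91409879-91410128 on the plus strand for Ace, chr17:34435433-34435682 on the minus strand for Agtr1a, chr13:58352667-58352916 on the minus strand for Rgs2 and chr13:84380827-84381076 on the plus strand for Rgs5. Capitals mark matches on either strand to 4 motifs. The TATA box was searched as TATAAA. The GC box, which binds Sp1-type factors, was searched as GGGCGG. The CCAAT box was searched as its name spells it. The half-site of the cyclic AMP response element was searched as TGACG. RefSeq windows were found for 7 of the 9 members.
Ace: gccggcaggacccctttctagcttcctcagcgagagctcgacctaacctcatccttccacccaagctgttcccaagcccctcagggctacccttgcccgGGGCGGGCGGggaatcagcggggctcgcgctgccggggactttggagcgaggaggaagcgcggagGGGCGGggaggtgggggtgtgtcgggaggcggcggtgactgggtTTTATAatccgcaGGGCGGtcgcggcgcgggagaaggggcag
Agtr1a: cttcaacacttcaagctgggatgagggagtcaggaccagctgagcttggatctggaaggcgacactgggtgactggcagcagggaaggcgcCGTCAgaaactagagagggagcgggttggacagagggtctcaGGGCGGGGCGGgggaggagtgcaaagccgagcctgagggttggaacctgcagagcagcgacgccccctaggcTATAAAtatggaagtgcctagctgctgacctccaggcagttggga
Rgs2: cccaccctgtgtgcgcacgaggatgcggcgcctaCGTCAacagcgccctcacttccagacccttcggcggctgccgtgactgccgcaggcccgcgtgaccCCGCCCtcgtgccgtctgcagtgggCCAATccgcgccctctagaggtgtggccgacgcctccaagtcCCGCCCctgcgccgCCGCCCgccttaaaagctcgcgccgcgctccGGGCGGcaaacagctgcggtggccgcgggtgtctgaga
Rgs5: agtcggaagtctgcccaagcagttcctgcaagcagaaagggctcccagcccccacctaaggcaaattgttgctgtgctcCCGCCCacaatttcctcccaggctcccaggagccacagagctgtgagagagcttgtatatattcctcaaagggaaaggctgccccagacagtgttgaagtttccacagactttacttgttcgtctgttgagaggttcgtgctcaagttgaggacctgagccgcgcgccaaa
The Ace and Agtr1a windows each held 1 TATA box, with 36 and 39 bases between it and the start, the Ace one on the opposite strand. Neither Rgs window held one, and 12.9% of 33469 rat promoter windows of this length do. GC boxes numbered 4 in Ace, 2 in Agtr1a, 4 in Rgs2 and 1 in Rgs5, and 30.5% of all windows hold at least 1. The first 2 in Ace overlap each other, as do the 2 in Agtr1a, and no match overlaps one of another motif. Rgs2 alone of the 4 held a CCAAT box, found in 34% of all windows, and Rgs2 and Agtr1a each held 1 cyclic AMP response half-site, found in 18.2%. The smooth muscle element called the CArG box was searched as well and was in none of the 4, against 1.5% of all windows. The GC content was 69.2% in Ace, 60.8% in Agtr1a, 72.4% in Rgs2 and 54.4% in Rgs5, with a median of 51.2% over all windows.

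None of the 9 genes passed the test between diabetic and control tissue. Probe sets entered the test when 5 or more arrays read above 85.9, the 40th percentile of the table. Of the 12 probe sets 6 passed this filter, for Ace (both), Rgs2 (both), Agtr1a (1 of 2) and Rgs5. By limma with Benjamini-Hochberg adjustment over 9683 probe sets, 0 of the 6 were called at an adjusted p of 0.05, against 0.423% of all probe sets tested. At an unadjusted p under 0.05 the count was also 0 of 6, against 17.5% of all. Their adjusted p lay between 0.332 and 0.994, and their median log2 change was -0.01, against 0.05 over all probe sets tested. The 5 diabetic and 5 control values overlapped in all 12 probe sets, whereas they did not overlap in 3.06% of all 15866. Without a filter, limma again called 0 of the 12, with 0 at an unadjusted p under 0.05, against 0.164% and 14.0% of all probe sets. The intervals around these changes were wide for some members, as given below.

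**Figure D1:**
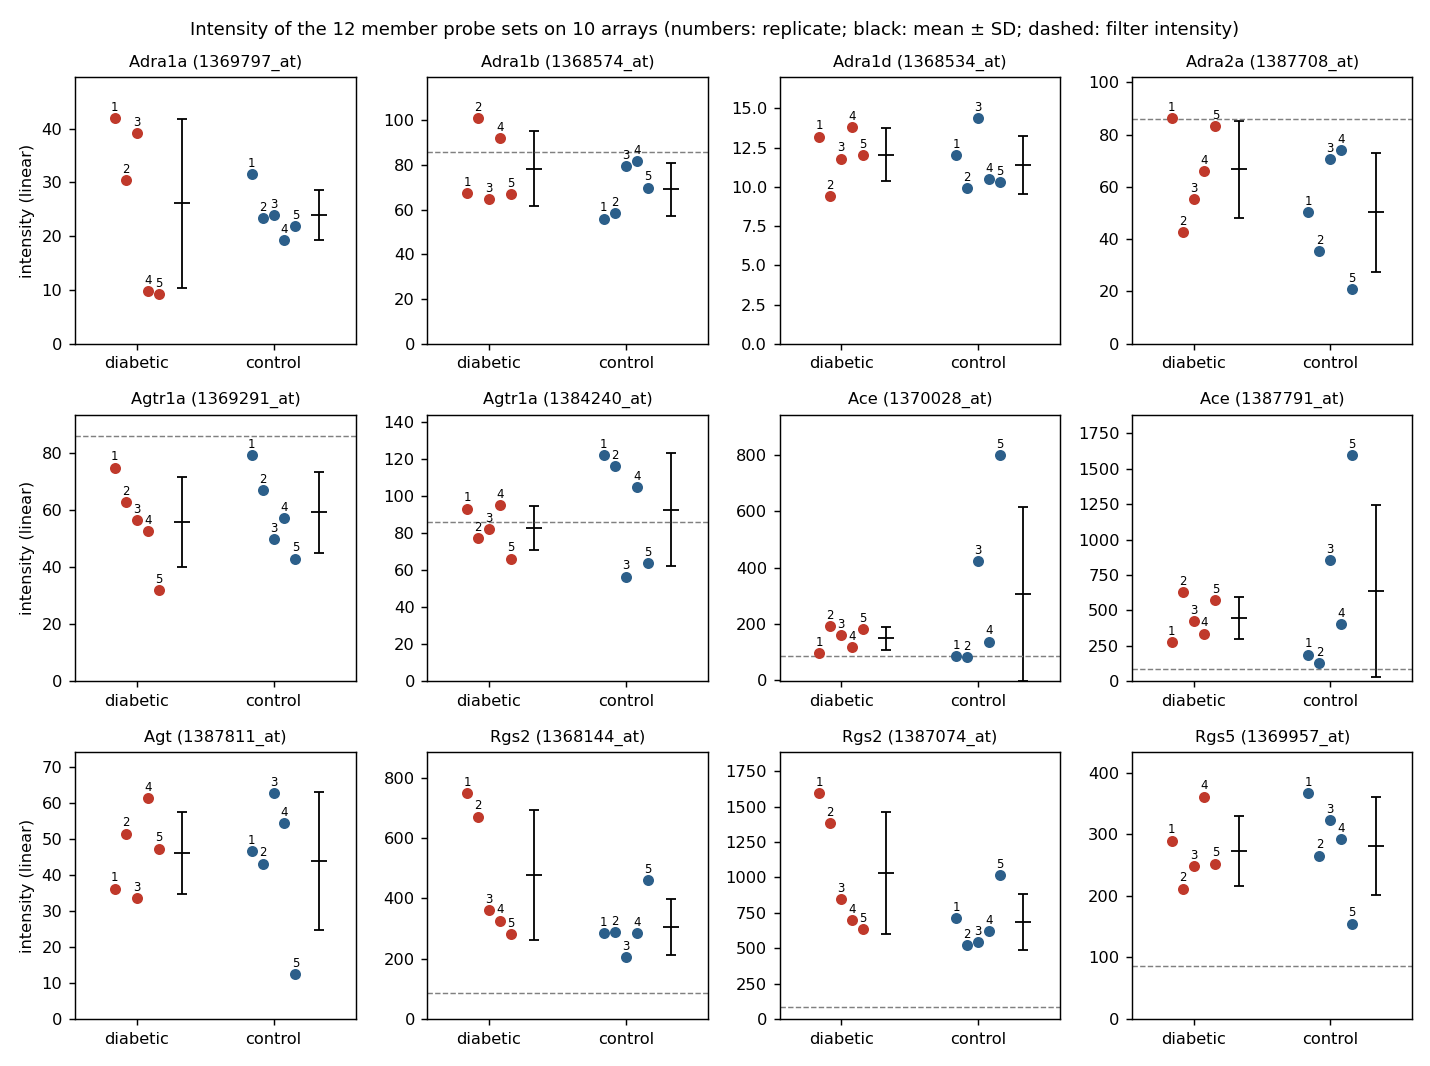
Linear intensity (vertical axis, a separate scale in each panel) of the 12 member probe sets in 5 diabetic (red) and 5 control (blue) arrays, numbered by replicate, with black bars for the mean ± SD and a dashed line at the filter intensity of 85.9. Controls 3 and 5 stand above all other arrays for both Ace probe sets, and diabetics 1 and 2 stand above all other arrays for both Rgs2 probe sets.

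Of the members, Rgs2 had the smallest p-values. Its product limits signalling through Gq, the G protein of the alpha1 and AT1 receptors. Probe set 1387074_at read 1597.2, 1383.3, 846.0, 698.2 and 636.5 in diabetics 1 to 5, against 711.9, 523.4, 544.6, 622.8 and 1014.7 in controls 1 to 5. Diabetics 1 and 2 lay above every control, and the other 3 diabetic values lay within the control range. The means were 1032 ± 432 in diabetic and 683.5 ± 199 in control tissue (SD, n = 5 each). On the scale log2(intensity + 16), which is used for all changes below, the difference was 0.53 ± 0.28 (SE), with a 95% interval of -0.08 to 1.14 (limma adjusted p = 0.336).

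The other Rgs2 probe set, 1368144_at, read 750.1, 671.2, 361.9, 326.2 and 281.2 in diabetics 1 to 5, against 283.9, 287.7, 205.7, 284.5 and 460.0 in controls 1 to 5. Here too diabetics 1 and 2 were the highest of the 10 arrays, followed by control 5 and diabetic 3. The difference was 0.56 ± 0.29, with a 95% interval of -0.07 to 1.20 (limma adjusted p = 0.332). In fold terms the interval ran from 0.950 to 2.29, so that neither no change nor a doubling lay outside it. Over the 10 arrays the pair of Rgs2 probe sets correlated at a Pearson r of 0.970 (permutation p = 3e-05) and a Spearman rho of 0.806 (permutation p = 0.00698). The p-values adjusted over the 3 genes with a pair were 4.5e-05 and 0.0105, and r was 0.880 without diabetics 1 and 2.

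The Rgs2 difference was positive in every batch that held both groups. Within scan days 1, 2 and 3 it was 0.69, 1.34 and 0.31 for 1387074_at, and within fluidics stations 1 and 2 it was 1.02 and 0.49. Each of these cells holds few arrays. The only diabetic array on scan day 1 and on station 1 was diabetic 2, and on scan day 2 it was diabetic 1, the pair with the highest Rgs2. Station 2 held diabetic 1 too, so that scan day 3 alone of these cells held neither, and the agreement between them largely restates those 2 arrays. The only control array on scan day 2 and on station 2 was control 4, and diabetic 3 was alone on scan day 4. With scan day as a block the difference was 0.67 ± 0.20 (limma unadjusted p = 0.0102, adjusted p = 0.328). With station as a block it was 0.75 ± 0.34 (limma adjusted p = 0.329).

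Diabetics 1 and 2 had both the most Rgs2 and the lowest mean of the skeletal muscle markers, which were bright in these samples. The mean log2 intensity of 13 such markers was 11.99 in diabetics 1 and 2, the arrays with the most Rgs2, 12.32 to 12.48 in diabetics 3 to 5 and 12.41 to 12.64 in the controls. Control 5, next in Rgs2 at 1014.7 for 1387074_at, had a mean of 12.46, inside the range of the other controls. The 13 markers summed to 70240 to 93161 in diabetic and 82391 to 107140 in control tissue. They did not move alike. In diabetic 1 Pvalb, parvalbumin, read 524, against 7074.7 to 9512 in the controls. Myh1, a skeletal myosin, read 3260.4 there, the highest of the 10 arrays. Of the 13 tested markers 0 passed and all 13 stood below 0, with Pvalb at -1.79 ± 0.55, Casq1, calsequestrin, at -0.64 ± 0.16 and Tnnt3, a troponin, at -0.30 ± 0.10 (limma adjusted p of 0.160, 0.0951 and 0.188). With the mean of this list as a covariate the Rgs2 differences were -0.27 ± 0.23 and -0.29 ± 0.23 for 1387074_at and 1368144_at (limma adjusted p = 0.996 for both), so the sign turned. In that fit 379 of all probe sets had a limma unadjusted p under 0.05, against 1695 in the main fit. All 13 markers stood below 0, and diabetics 1 and 2 held both extremes. This covariate therefore cannot be told apart from group and from those arrays. The part of muscle content in the Rgs2 values was not tested. With the epithelial mean as a covariate they were 0.28 ± 0.31 and 0.38 ± 0.34 (limma adjusted p of 0.741 and 0.670). The smooth muscle mean as a covariate gave higher values instead, 0.75 ± 0.34 and 0.78 ± 0.36 (limma adjusted p of 0.581 and 0.583).

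**Figure D2:**
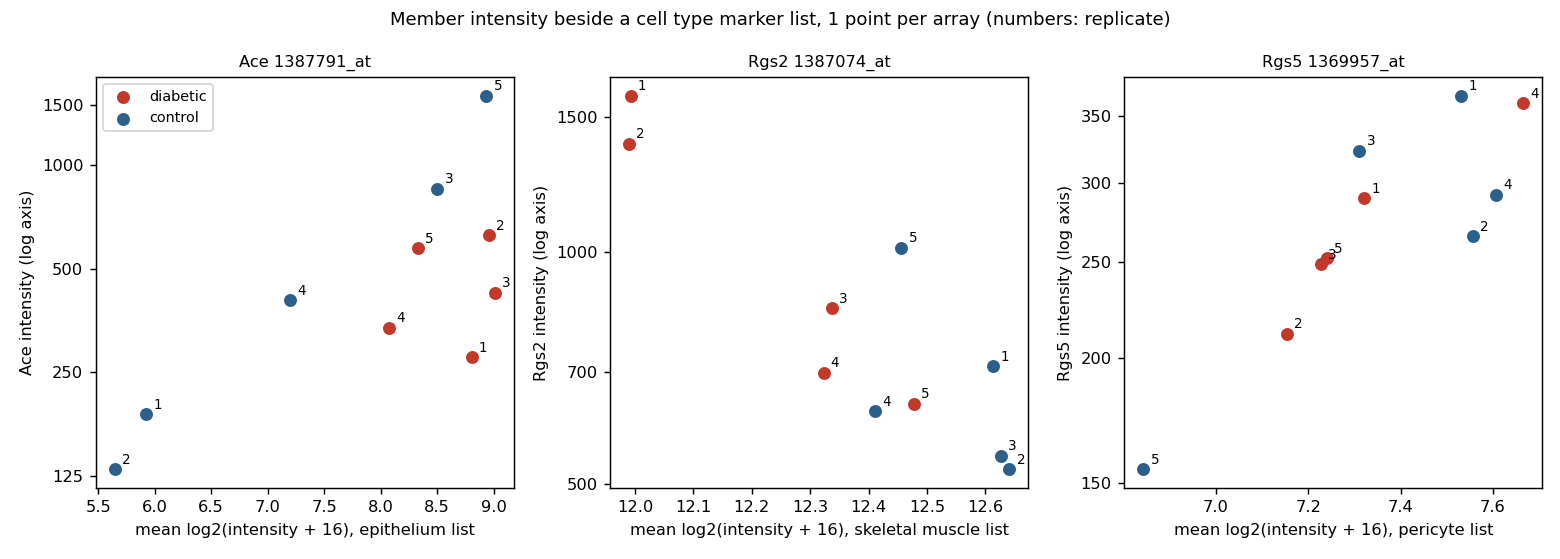
Intensity of Ace, Rgs2 and Rgs5 (vertical, log axis) against the mean log2 intensity of the epithelial, skeletal muscle and pericyte marker lists (horizontal), with 1 point per array, diabetic in red and control in blue, numbered by replicate. Diabetics 1 and 2 combine the highest Rgs2 with the lowest skeletal muscle mean, and control 5 combines the lowest Rgs5 with the lowest pericyte mean. Control 5 was also lowest in the endothelial, adipocyte and macrophage lists.

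Rgs5, which in blood vessels is found in pericytes and arterial smooth muscle, differed little between the groups. It read 289.7, 211.8, 248.6, 360.9 and 252.1 in diabetics 1 to 5, against 367.0, 265.3, 323.1, 291.9 and 154.8 in controls 1 to 5. The ranges overlapped almost wholly, and both the highest and the lowest value came from a control. The means were 272.6 ± 56.5 and 280.4 ± 79.8, and the difference was -0.01 ± 0.21, with a 95% interval of -0.47 to 0.46 (limma adjusted p = 0.983). In fold terms the interval was 0.720 to 1.37.

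Control 5, the array with the least Rgs5, was also lowest in pericyte and endothelial markers. The mean log2 intensity of 8 pericyte markers was 6.84 there, against 7.15 to 7.67 in diabetic tissue and 7.31 to 7.61 in the other controls. Their summed intensity was 1528 to 2286 in diabetic and 1228 to 2162 in control tissue, and 1 of the 8, Higd1b, lay at or under the filter intensity on all arrays. The 10 endothelial markers averaged 7.44 in control 5, against 7.91 to 8.28 in diabetic tissue and 7.83 to 8.09 in the other controls. Control 5 was the lowest of the 10 arrays in the adipocyte and macrophage lists too, at 6.02 and 7.40. Its low reading was thus not particular to pericytes and endothelium. The part of these lists in the Rgs5 values was not tested. Of 6 tested pericyte and 9 tested endothelial markers 0 passed, with Mcam, a cell adhesion molecule, at 0.56 ± 0.15 and Cldn5, a tight junction protein of endothelium, at 0.83 ± 0.19 (limma adjusted p of 0.131 and 0.0771).

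Ace showed the widest spread of the members among the controls. Its product converts angiotensin I to angiotensin II and also breaks down bradykinin. Probe set 1387791_at read 276.9, 627.0, 425.9, 337.0 and 573.5 in diabetics 1 to 5, against 188.8, 130.8, 855.3, 405.3 and 1594.5 in controls 1 to 5. The diabetic values all lay between those of control 1 and control 3. The highest diabetic value was 2.26 times the lowest, and the highest control 12.2 times the lowest. On the log2 scale the SD was 0.48 in diabetic and 1.43 in control tissue. These exceeded the SD of 97.1% and 98.6% of all probe sets tested in the same group. In diabetic tissue Rgs2 spread more widely than Ace, with SDs of 0.62 and 0.58 for 1368144_at and 1387074_at. The difference in Ace 1387791_at was -0.01 ± 0.58, with a 95% interval of -1.29 to 1.27 (limma adjusted p = 0.994).

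Probe set 1370028_at of Ace read 97.7, 193.2, 159.3, 118.0 and 181.2 in diabetics 1 to 5, against 86.6, 83.6, 422.8, 137.2 and 798.5 in controls 1 to 5. It put the 10 arrays in exactly the same order as the first, with control 5 at the top and control 2 at the bottom. The Spearman rho was 1 and the Pearson r was 0.943 (permutation p = 1e-05 for each, the smallest that 100000 permutations can give; 3e-05 adjusted over 3 genes). Without controls 3 and 5, r was 0.959. The difference was -0.47 ± 0.54, with a 95% interval of -1.66 to 0.72 (limma adjusted p = 0.658). With so wide an interval, neither a fall to 0.317 of the control level nor a rise to 1.65 times it lay outside.

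Among the controls Ace followed the epithelial markers in order. The mean log2 intensity of the 16 epithelial markers was 8.81, 8.96, 9.01, 8.07 and 8.33 in diabetics 1 to 5, against 5.93, 5.65, 8.50, 7.20 and 8.94 in controls 1 to 5. Among the controls 5 was highest, then 3, 4, 1 and 2, as for Ace, while the order among the diabetics differed from that of Ace. Of the 16 markers Krt13 lay at or under the filter intensity on all arrays. Of the 13 tested 0 passed and all 13 stood above 0, with a median of 1.84, among them Krt5, a keratin of basal cells, at 1.11 ± 0.42, Dsp, desmoplakin, at 1.40 ± 0.55 and Cldn4, a claudin, at 1.84 ± 0.73 (limma adjusted p of 0.230, 0.237 and 0.242).

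The 3 alternatives that take the epithelial markers into account gave lower Ace estimates, and Ace was called in 2 of them. Controls 1, 2 and 4 were also the controls with the least Ace, so leaving them out lowers the difference whatever the reason. Leaving out controls 1 and 2, the lowest in these markers, gave -1.23 ± 0.45 for 1370028_at (limma adjusted p = 0.518) and -0.92 ± 0.41 for 1387791_at (limma adjusted p = 0.623). Leaving out controls 1, 2 and 4, a choice made with the epithelial values of these arrays known, gave -1.89 ± 0.29 for 1370028_at (limma adjusted p = 0.0448) and -1.41 ± 0.33 for 1387791_at (limma adjusted p = 0.127). With the mean of the 13 tested epithelial markers as a covariate and all arrays kept, these were -1.64 ± 0.28 (limma adjusted p = 0.0441) and -1.27 ± 0.29 (limma adjusted p = 0.117). Ace was thus called by 1 of its 2 probe sets in each of the last 2 fits, where 0.217% of all probe sets were called. Only 2 controls, the pair with the most Ace, remain when controls 1, 2 and 4 are left out. The covariate fit draws in part on the same controls, whose order in the list was that of Ace. The 3 fits are therefore not separate evidence, and they cannot test the part of epithelial content in the Ace values.

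Scan day and station did not settle the direction for Ace. Within scan days 1, 2 and 3 the difference was -0.47, -0.43 and -0.36 for 1370028_at, but 0.16, -0.52 and 0.35 for 1387791_at. Within stations 1 and 2 it was -0.23 and -0.02 for 1370028_at, and 0.50 and -0.06 for 1387791_at. Leaving out 1 array at a time moved 1387791_at between -0.41 and 0.46 and 1370028_at between -0.76 and -0.003, with the value nearest 0 reached without control 5.

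Agtr1a, the angiotensin receptor, was measured close to the filter intensity. Probe set 1384240_at read 93.3, 77.3, 82.3, 95.1 and 66.3 in diabetics 1 to 5, against 122.1, 116.4, 56.6, 104.9 and 63.9 in controls 1 to 5. The diabetic values lay inside the control range, where controls 1, 2 and 4 were the highest of all 10 arrays and controls 3 and 5 the lowest. The difference was -0.10 ± 0.20, with a 95% interval of -0.53 to 0.34 (limma adjusted p = 0.814). Controls 3 and 5 were those with the most Ace. With the epithelial covariate the Agtr1a difference was 0.26 ± 0.16, and without controls 1, 2 and 4 it was 0.37 ± 0.17 (limma adjusted p of 0.521 and 0.346). Controls 1, 2 and 4 had the most Agtr1a, so leaving them out raises the difference whatever the reason. The covariate fit draws in part on the same controls.

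The dimmer Agtr1a probe set, 1369291_at, read 74.7, 62.6, 56.3, 52.4 and 31.8 in diabetics 1 to 5, against 79.0, 66.9, 49.6, 57.0 and 42.9 in controls 1 to 5. No array exceeded the filter intensity. Without a filter its difference was -0.08 ± 0.19 (limma adjusted p = 0.873). The pair of Agtr1a probe sets correlated at a Pearson r of 0.732 (permutation p = 0.0148, adjusted 0.0148) and a Spearman rho of 0.758 (permutation p = 0.0151, adjusted 0.0151), and r was 0.643 without diabetic 5 and control 1.

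All 4 adrenoceptors lay under the filter. The deposited table holds no detection calls, so whether such dim readings stand above background is not known, and their differences are given from the limma fit without a filter, over 15866 probe sets. Adra1b, a Gq-coupled receptor of vessels, came closest, with 67.3, 101.1, 64.7, 91.9 and 66.8 in diabetics 1 to 5, against 56.0, 58.3, 79.6, 81.8 and 69.9 in controls 1 to 5. Diabetics 2 and 4 were above all controls and the only arrays over 85.9. The difference was 0.14 ± 0.15, with a 95% interval of -0.19 to 0.47 (limma adjusted p = 0.687).

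Adra2a, the receptor through which noradrenaline also restrains its own release from nerve endings, read 86.4, 42.7, 55.3, 66.0 and 83.2 in diabetics 1 to 5, against 50.3, 35.4, 70.7, 74.0 and 21.0 in controls 1 to 5. Diabetics 1 and 5 were the highest and control 5 the lowest of the 10 arrays. It had the largest estimate among the untested members, 0.37 ± 0.26, with a 95% interval of -0.21 to 0.94 (limma adjusted p = 0.531). Without control 5 this was 0.17 ± 0.22 (limma adjusted p = 0.669). With station as a block it was -0.003 ± 0.28 (limma adjusted p = 0.997), and within stations 1 and 2 it was 0.03 and -0.04.

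Adra1a, a Gq-coupled receptor prominent in urogenital smooth muscle, read 42, 30.4, 39.1, 9.8 and 9.3 in diabetics 1 to 5, against 31.6, 23.3, 23.9, 19.3 and 21.8 in controls 1 to 5. The diabetic values lay on both sides of the control range, with diabetics 1 and 3 above it and 4 and 5 below it, and the difference was -0.01 ± 0.25 (limma adjusted p = 0.990). Adra1d, the third alpha1 receptor, read 9.4 to 13.8 with a median of 12 in diabetic tissue and 9.9 to 14.4 with a median of 10.5 in control tissue. Its narrow interval, -0.14 to 0.21 around a difference of 0.03, is one of values near the floor of the array, where the constant of 16 in log2(intensity + 16) outweighs the signal.

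Agt, the angiotensin precursor made chiefly in liver and also in fat, was likewise dim. It read 36.3, 51.6, 33.7, 61.5 and 47.4 in diabetics 1 to 5, against 46.7, 43.2, 62.9, 54.6 and 12.5 in controls 1 to 5. Control 5 lay far under the other 9 arrays, which overlapped. The difference was 0.11 ± 0.26, with a 95% interval of -0.46 to 0.68 (limma adjusted p = 0.872), and it was -0.14 ± 0.16 without control 5. Of 5 hepatocyte markers Alb, Apoa1 and Apoc3 lay at or under the filter intensity on all arrays. Ttr, transthyretin, read 57.8 to 143 in diabetic and 53.5 to 96.7 in control tissue, and Serpina1, a protease inhibitor, read 96.7 to 130.6 and 29.5 to 108, with a difference of 0.71 ± 0.24 (limma adjusted p = 0.195). The adipocyte markers Plin1 and Lep lay at or under the filter intensity on all arrays. Of the 4 tested adipocyte markers Cidea, a lipid droplet protein, rose, at 1.15 ± 0.19 (limma adjusted p = 0.0413), while Lipe, hormone-sensitive lipase, stood at 0.60 ± 0.19 and Cfd, adipsin, at -0.56 ± 0.42 (limma adjusted p of 0.176 and 0.485).

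**Figure D3:**
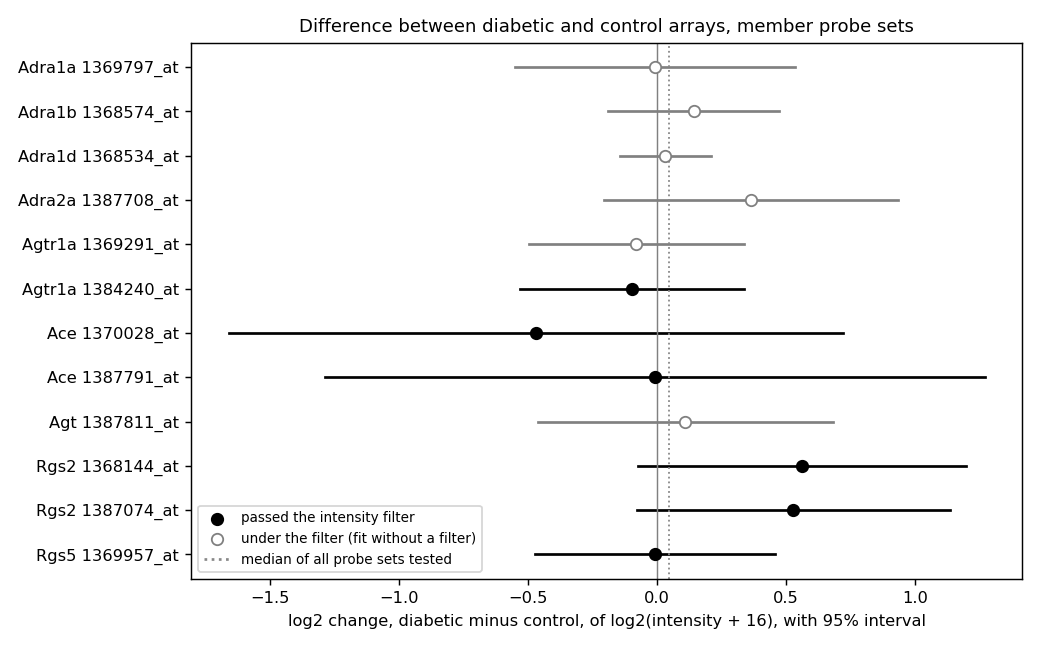
Difference between diabetic and control arrays (horizontal axis, diabetic minus control on the scale log2(intensity + 16)) for the 12 member probe sets, with 95% intervals; filled points passed the filter and open points come from the fit without a filter. Every interval includes 0, and those of Ace are the widest, from -1.66 to 0.72 and from -1.29 to 1.27.

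The patterns most like those of the members over the 10 arrays were looked up among 8211 tested probe sets of 1 other gene, as a description, since all values share the same arrays and scaling. For Rgs2 1387074_at these were Becn1 (r = 0.893, rho = 0.830), Acer2 (0.887, 0.806), Pmpcb (0.887, 0.770) and Dbi (0.883, 0.927). Without diabetics 1 and 2 their r lay between 0.711 and 0.795. For Rgs2 1368144_at they were Pmpcb (r = 0.884, rho = 0.770), Plin2 (0.883, 0.806), Golm1 (0.881, 0.794) and Acer2 (0.874, 0.600), and r lay between 0.400 and 0.805 without the same arrays. For Ace 1387791_at, added after its values were seen, they were Sppl2a (r = 0.980, rho = 0.952), Pcca (0.979, 0.964), Pfkl (0.978, 0.964) and Hsd17b6 (0.975, 0.952), and r lay between 0.933 and 0.963 without controls 2 and 5. An r over 0.9 was reached by 153 probe sets for Ace and by 0 for either Rgs2 probe set.

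The rest of the pathway was read through 7 lists of genes, of which 6 are described. Of 104 genes on the array 60 were tested and limma called 0, with 11 at an unadjusted p under 0.05, 7 higher and 4 lower. That is 18.3%, against 17.5% of all probe sets tested. The median log2 change of the 60 was 0.06, against 0.05 over all. In 3 of the 60, Prkca, Gnb2 and F2rl1, the groups did not overlap, a share to be read against 3.89% of all probe sets tested.

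Downstream of Gq, 21 of 25 listed genes were tested, 0 passed and their median was 0.09. Prkca, the conventional protein kinase C alpha, read 92.9, 85.3, 100.5, 102.4 and 106.4 in diabetics 1 to 5, against 171.1, 154.1, 128.8, 155.2 and 118.5 in controls 1 to 5. All diabetic values lay under all control values, and the difference was -0.50 ± 0.11 (limma adjusted p = 0.0771). Gnb2, a G protein beta subunit, averaged 1192 ± 73.7 in diabetic and 941.7 ± 80.4 in control tissue, a difference of 0.34 ± 0.10 (limma adjusted p = 0.137). Gna12, a G protein alpha subunit, stood at 0.21 ± 0.09 (limma adjusted p = 0.247).

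Of 9 receptor kinase and arrestin genes 1 was tested, Grk2, at 0.08 ± 0.13 (limma adjusted p = 0.784). The 6 tested of 19 other RGS genes lay between -0.25 and 0.02 with a median of -0.02, among them Rgs10 at -0.25 ± 0.16, Rgs1 at -0.09 ± 0.32 and Rgs3 at -0.02 ± 0.15 (limma adjusted p of 0.407, 0.888 and 0.953).

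Among the other angiotensin and kinin genes 8 of 24 were tested, 0 passed and the median was 0.19. Enpep, the aminopeptidase that converts angiotensin II to angiotensin III, read 361.2, 257.9, 309.1, 410.4 and 299.1 in diabetics 1 to 5, against 267.0, 218.3, 268.6, 239.3 and 193.6 in controls 1 to 5. Diabetic 2 alone lay within the control range, and the difference was 0.43 ± 0.14 (limma adjusted p = 0.174). Mme, neprilysin, which also cleaves angiotensin peptides, stood at -0.40 ± 0.15, and Nr3c2, the mineralocorticoid receptor, at 0.37 ± 0.17 (limma adjusted p of 0.221 and 0.277).

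Of the other adrenoceptors and genes of catecholamine handling 5 of 21 were tested, 0 passed and the median was -0.14. Ddc, the decarboxylase that makes dopamine, stood at 0.33 ± 0.14, and the monoamine oxidases Maoa and Maob, which break catecholamines down, at -0.14 ± 0.09 and -0.15 ± 0.10 (limma adjusted p of 0.254, 0.410 and 0.445). Of 18 other vasoconstrictor receptors and ligands 9 were tested, 0 passed and the median was 0.10. F2rl1, a protease-activated receptor, averaged 166.4 ± 16.4 in diabetic and 125.6 ± 13.1 in control tissue, a difference of 0.36 ± 0.10. The thrombin receptor F2r stood at 0.41 ± 0.19 and Ptger3, a prostaglandin E receptor, at 0.41 ± 0.26 (limma adjusted p of 0.122, 0.291 and 0.404 for the 3).

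**Figure D4:**
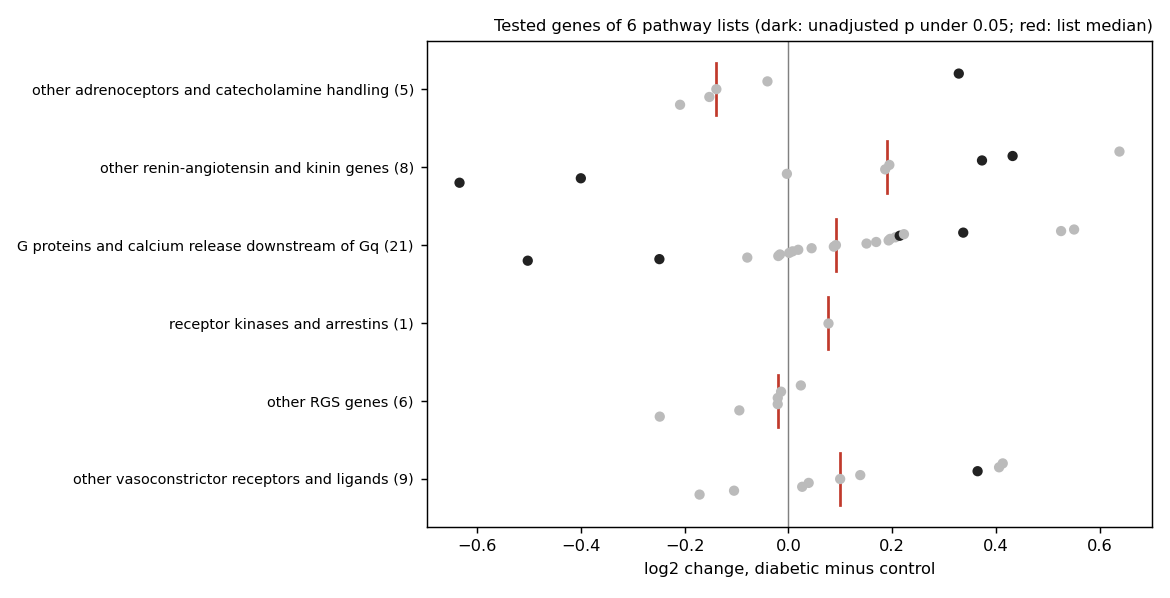
Difference between diabetic and control arrays (horizontal axis, log2 scale) for the tested genes of 6 pathway lists, 1 point per gene, with the number tested beside each list name; dark points have an unadjusted p under 0.05 and red lines mark list medians. The medians lie between -0.14 and 0.19, and Prkca at -0.50 and Hsd11b1 at -0.63 are the lowest points.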

How the data were processed

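Per the labels, total RNA of 5 diabetic and 5 control samples of F344 rat penis was put on 1 array each. The deposited table holds linear intensities that the authors scaled, with a trimmed mean of 249.6 to 249.9 on every array over all 15923 rows, 57 control rows included, once the lowest and highest 2% of values are left out. The control rows were left out of all tests. The software behind the intensities and detection calls are not given in the sources used here. The arrays, per the file headers, were of 1 chip lot and were scanned on 4 days and washed on 2 stations. Station 1 held diabetic 2 and controls 1, 2, 3 and 5, and station 2 held the other diabetics and control 4. Station and group were thus largely aligned, for every probe set in the main test. Operator 2 ran only the scan day 1 arrays, diabetic 2 and controls 1 and 5, and operator 1 ran the others.

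The annotation named 1 gene for 12783 of 15866 probe sets, with symbols updated through the Entrez identifier for 12748. Intensities were floored at 1 and analysed as log2(intensity + 16), a scale that understates changes of dim probe sets. Diabetic and control arrays were tested two-sided with limma 3.58.1 (R 4.3.3) through lmFit and a trended eBayes, over all 9683 probe sets passing the filter. The fit was tested on simulated data. List genes were read by their brightest probe set. The genes of 1 pathway list count in the totals and are not reported here otherwise. Named were all members and, per pathway list, genes called and up to 3 with the smallest p. Marker genes were named in part by their role in the tissue and not by p. The members, lists and alternatives were chosen with earlier results of these data known. Alternatives covered scaling, pseudocounts, filters, batch blocks, covariates and left-out arrays. Figures were drawn with matplotlib 3.10.9.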

Additional observations from a re-analysis of the deposited data

Results flagged for a closer look

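Among the 24 groups of 5 arrays formed by the 12 probe sets, 1 held an array far from the others, and about 1 in 20 groups does so by chance. This was Agt in control 5, at an intensity of 12.5, while the nearest of the other controls read 43.2. The gap made up 0.718 of the group's range on the log2 scale.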

How the results depend on the processing

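Diabetic minus control differences are given on the log2 scale. With each array left out in turn, 0 members were called throughout, the count over all probe sets ran from 0 to 1068 against 41 with all arrays (0 without control 1, diabetic 2 or diabetic 3, 1068 without control 5), and that of pathway genes from 0 to 6 (6 without control 5). Agtr1a 1384240_at then ran from -0.23 to 0.0016, Ace 1387791_at from -0.41 to 0.46, Rgs5 from -0.20 to 0.10, and Rgs2 from 0.35 to 0.68 and from 0.38 to 0.72.

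Among the other alternatives, 1 member probe set was called with the epithelium covariate and 1 without controls 1, 2 and 4, in both cases Ace 1370028_at (-1.64 and -1.89), and 0 in the rest. Over all probe sets 22 were called with a pseudocount of 1, 26 with no filter, 28 with a pseudocount of 64, 2813 with array weights, and 21 with the epithelium covariate or without controls 1, 2 and 4. Limma called 0 with scan day or station as a block, with the skeletal or smooth muscle covariate, and without controls 1 and 2 (unadjusted p under 0.05 in 1119, 1483, 379, 829 and 773). Array weights called 14 pathway genes.

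Among the tested probe sets, signs turned for Ace 1387791_at, from -0.0075, with a pseudocount of 1 (0.012), scan day (0.091) or station (0.22) as a block and array weights (0.71), and for Ace 1370028_at with array weights (0.22). They turned for Agtr1a 1384240_at and Rgs5 with the epithelium covariate (0.26 and 0.26), without controls 1 and 2 (0.15 and 0.12) and without controls 1, 2 and 4 (0.37 and 0.24), and for Rgs2 1368144_at (-0.29), Rgs2 1387074_at (-0.27) and Rgs5 (0.20) with the skeletal muscle covariate. Among the untested ones, leaving aside single left-out arrays, they turned with station as a block for Adra1a (0.14), Adra1d (-0.003) and Adra2a (-0.003), with array weights for Agt (-0.04), with median centring for Adra1d (-0.03), with a pseudocount of 64 for Adra1a (0.02), with the skeletal muscle covariate for Adra1b (-0.04), and with the smooth muscle covariate for Adra1a (0.31), Adra1b (-0.10), Agt (-0.21) and Agtr1a 1369291_at (0.07). They also turned for Agtr1a 1369291_at with the epithelium covariate (0.10), without controls 1 and 2 (0.09) and without controls 1, 2 and 4 (0.17), for Adra1a in the same 2 left-out sets (0.07 and 0.03), and for Adra1d in the second (-0.01). The cause was not tested. Ace 1370028_at and Agtr1a 1384240_at did not pass the filter at the 60th percentile. No paired analysis was possible because replicate numbers were given in accession order and link no diabetic to any control array.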

Other observations

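Dim genes of the angiotensin and kinin list, chosen after their values were seen, separated the groups without passing the filter. Bdkrb1, the kinin B1 receptor, read 49.8, 43.6, 37.1, 30.6 and 41.3 in diabetics 1 to 5, against 57.6, 59.0, 56.9, 67.0 and 56.2 in controls 1 to 5. All diabetic values lay under all control values, and the difference in the limma fit without a filter was -0.42 ± 0.11 (adjusted p = 0.165). Mas1, the receptor for angiotensin-(1-7), read 55.1, 66.4, 60, 66.5 and 63.6 in diabetics 1 to 5, against 33.1, 54.5, 38.9, 54.9 and 9.3 in controls 1 to 5. Here all diabetic values lay above all control values, by as little as 0.2 intensity units, and the difference was 0.62 ± 0.25 (limma adjusted p = 0.314).

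Grk5, a kinase that desensitises adrenoceptors, read 71.1, 40.9, 64.9, 69.5 and 23.6 in diabetics 1 to 5, against 78.1, 72.0, 75.2, 72.3 and 82.1 in controls 1 to 5. The groups again did not overlap, and the difference was -0.45 ± 0.21 (limma adjusted p = 0.362). Such separation held for 3.06% of all 15866 probe sets.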
